A study of Mus musculus with 9 samples.

Results

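The transcripts described here are those of *Cnr2*, which encodes the cannabinoid receptor CB2, and of 7 enzymes that make or break down endocannabinoids, *Dagla*, *Daglb*, *Mgll*, *Abhd6*, *Abhd12*, *Napepld* and *Faah*. They are 8 of the 55471 genes in the count data and were taken by gene symbol. The set was chosen on the measured values of *Cnr2*, whose level was far lower with LPS than with IFN-β, so every value of *Cnr2* between conditions is given as a description without a test. The enzyme genes were added for their place in the pathway, with earlier results of these data known, so their tests are not independent of that choice. All 8 genes passed the filter on low counts, which kept 16260 genes.

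Endocannabinoids are lipid messengers made on demand from membrane phospholipids. Diacylglycerol lipases release 2-arachidonoylglycerol (2-AG) from diacylglycerol, and monoacylglycerol lipase (*Mgll*) and the serine hydrolases encoded by *Abhd6* and *Abhd12* hydrolyse 2-AG to arachidonic acid and glycerol. *Napepld* encodes a phospholipase D that releases anandamide and other N-acylethanolamines, and *Faah* encodes the fatty acid amide hydrolase that degrades them. CB2 is the cannabinoid receptor typical of leukocytes and signals through inhibitory G proteins.

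RNA was sequenced from dendritic cells (DCs) grown from the bone marrow of wild-type C57BL/6 female mice aged 8 to 20 weeks. The cells were cultured with GM-CSF at 20 ng/mL, a growth factor whose cultures hold macrophage-like cells as well as DCs. They were left unstimulated, activated with LPS at 100 ng/mL, a bacterial membrane component sensed by a Toll-like receptor, or treated with IFN-β at 1000 U/mL, a type I interferon, in each case for 6 h. Each condition had 3 libraries with the letters A, B and C. The labels do not say whether the libraries came from separate mice or cultures, so the tests measure the spread between these libraries, which may be technical. The question here was how each stimulus changed the transcripts of this receptor and its enzymes, and whether the responses to the 2 stimuli differed.

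Between 33425803 and 43735199 counts per library fell on genes, and 3 counts corresponded to 0.0674 to 0.106 CPM, the count as a share of the scaled library size. The stimulation markers followed the labels, since *Il12b*, a cytokine subunit, averaged 3.41 CPM in unstimulated DCs, 3615 CPM with LPS and 4.28 CPM with IFN-β, and the interferon-induced gene *Mx1* averaged 129, 2578 and 1355 CPM. All 8 DC and all 8 macrophage or monocyte markers passed the filter. The summed level of the DC markers was 5051 to 6139 CPM in unstimulated, 6988 to 7801 CPM in LPS-activated and 5661 to 6007 CPM in IFN-β-treated DCs. That of the macrophage or monocyte markers was 11981 to 15274, 10585 to 13375 and 11889 to 13916 CPM. Of the 8 B cell markers, none passed the filter, and their summed level was 0.494 to 0.709, 0.369 to 0.743 and 0.319 to 0.422 CPM. The summed level of 4 plasmacytoid DC markers was 41.3 to 50.04 CPM in unstimulated, 212 to 258 CPM in LPS-activated and 78.1 to 100.5 CPM in IFN-β-treated DCs. *Tcf4* gave most of this sum, with means of 39.3, 225 and 82.6 CPM in these conditions. *Ccr9* averaged 0.491, 2.17 and 1.20 CPM, whereas *Spib* was lower with LPS, at 5.47, 2.24 and 4.67 CPM. *Siglech*, the defining marker, was at 0 or 1 count in every library. The T cell, NK cell, neutrophil, mast cell and eosinophil markers each summed to at most 33.1 CPM in any library. The part of these markers in the results was not tested.

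The promoter sequences of the receptor gene and of the enzyme gene with the largest rise are shown because these genes moved furthest in opposite directions. Each window holds 250 bases before and 50 bases after a transcription start in RefSeq on GRCm38.p6, 5′ to 3′ on the strand of the gene, with matches to the searched motifs in capitals. Windows of 6 members were matched, those of *Cnr2*, *Faah*, *Mgll*, *Daglb*, *Napepld* and *Abhd6*, and none was used for *Dagla* and *Abhd12*. The *Cnr2* windows lie at chr4:135894939-135895238 and at chr4:135911430-135911729 on the plus strand, and the *Faah* window lies at chr4:116017875-116018174 on the minus strand.
Cnr2, first start: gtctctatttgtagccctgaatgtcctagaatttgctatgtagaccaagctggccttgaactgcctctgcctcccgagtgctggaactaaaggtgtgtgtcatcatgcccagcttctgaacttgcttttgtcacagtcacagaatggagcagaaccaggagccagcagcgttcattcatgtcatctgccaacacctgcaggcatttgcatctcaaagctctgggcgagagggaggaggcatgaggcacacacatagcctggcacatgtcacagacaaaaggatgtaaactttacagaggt
Cnr2, second start: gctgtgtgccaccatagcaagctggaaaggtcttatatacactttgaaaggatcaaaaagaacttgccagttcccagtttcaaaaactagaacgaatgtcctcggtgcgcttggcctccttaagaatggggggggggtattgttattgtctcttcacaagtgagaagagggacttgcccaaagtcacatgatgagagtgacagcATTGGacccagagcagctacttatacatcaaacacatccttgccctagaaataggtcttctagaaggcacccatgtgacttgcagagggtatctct
Faah: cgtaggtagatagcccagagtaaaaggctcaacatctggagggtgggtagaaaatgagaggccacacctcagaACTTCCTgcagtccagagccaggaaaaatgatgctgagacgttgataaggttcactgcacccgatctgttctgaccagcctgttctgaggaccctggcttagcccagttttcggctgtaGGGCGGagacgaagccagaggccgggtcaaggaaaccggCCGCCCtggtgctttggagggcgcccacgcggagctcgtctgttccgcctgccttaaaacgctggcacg
The *Cnr2* windows were poor in CpG, with 3 CpG dinucleotides in each, whereas the *Faah* window had 16 and the *Mgll* windows 32 and 42. The median over 32851 windows was 7, and 31.4% of windows held at most 3. Each of 7 short motifs, none of which contains another, was searched on both strands. The *Faah* window held AGGAAGT, a motif read by ETS factors such as PU.1, which was present in 9.35% of all windows. It also held GGGCGG, the GC box, which was present in 35.7%. The second *Cnr2* window held CCAAT, present in 37.4% of all windows, and the first held no match. GGGNNTTTC, core letters of a motif read by NF-κB, occurred in both overlapping *Abhd6* windows and in 4.36% of all windows. The remaining motifs had no match in the 9 windows of these genes. Of these, GAAANNGAA, core letters of the interferon-stimulated response element, was in 8.56% of all windows. The AP-1 motif TGANTCA was in 7.81% of all windows. The TATA box, searched as TATAAA, was in 13.6% of them. A match is a run of letters and was not tested as a site.

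*Cnr2* (ENSMUSG00000062585, chr4:135895394-135920207, plus strand, GRCm38) was well expressed in unstimulated DCs and close to lost with LPS. Its level was 56.0, 48.6 and 46.5 CPM in unstimulated libraries A, B and C, 0.814, 1.05 and 0.952 CPM with LPS, and 33.1, 31.3 and 26.5 CPM with IFN-β. The 3 conditions did not overlap, and IFN-β-treated DCs stood between the others but near the unstimulated end. The LPS values rest on 23, 36 and 31 counts, against 2212, 2162 and 2062 counts in unstimulated DCs. Mean levels were 50.4 ± 5.02, 0.938 ± 0.118 and 30.3 ± 3.39 CPM (SD, n = 3). The fitted log2 fold change was -5.73 (SE 0.14) with LPS, or 53.2-fold lower, and -0.73 (SE 0.10) with IFN-β, or 1.66-fold lower. Ordered from the largest fall, *Cnr2* held place 13 of 16260 genes with LPS and place 1638 with IFN-β. Between the stimuli its level was 32.0-fold higher with IFN-β than with LPS (SE 0.14 on the log2 scale). In bulk RNA, fewer cells of a type and less RNA per cell cannot be told apart. The B cell markers, from a cell type known for CB2, were near 0 in all 3 conditions.

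**Figure D1:**
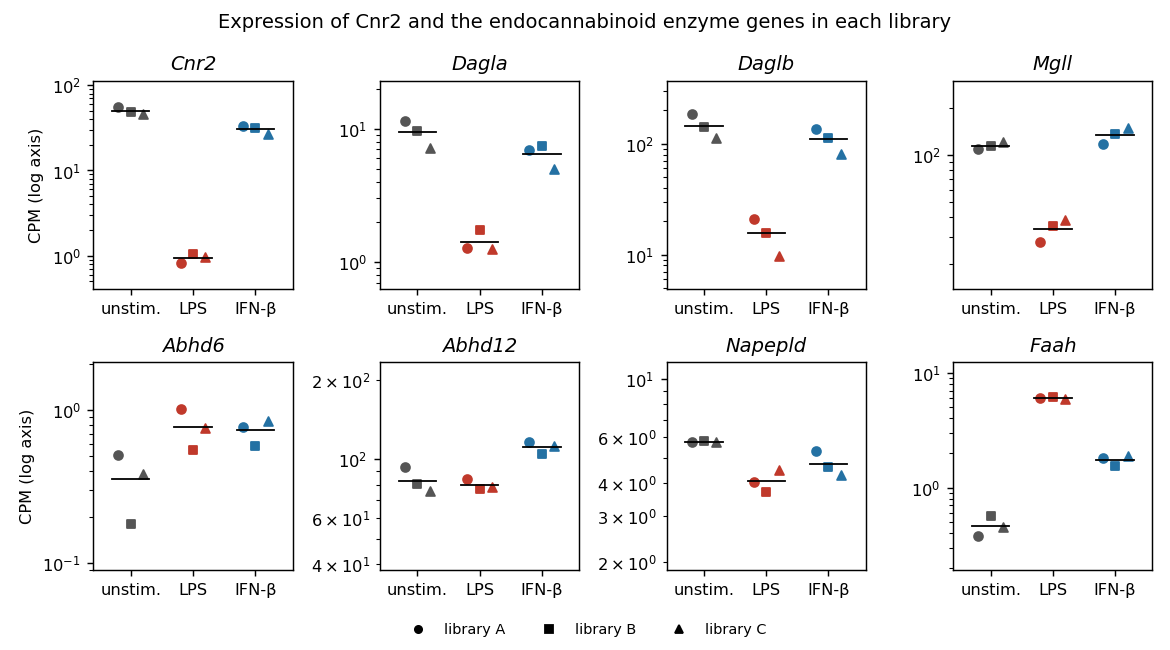
Level of each gene in CPM (log axis, with its own range in each panel) in the 3 libraries of each condition, with the mean as a line and the library letter as the symbol. *Cnr2* sits between 0.814 and 1.05 CPM in the LPS libraries and at 26.5 CPM or more in all others, whereas *Faah* is highest with LPS.

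The genes described beside *Cnr2* on its chromosome moved less. *Fuca1*, a lysosomal fucosidase gene that begins 527 bp beyond the end of *Cnr2*, fell by 0.83 on the log2 scale with LPS (edgeR adjusted p = 7.49e-05), and its log2 fold change with IFN-β was -0.08 (adjusted p = 0.597). On the other side, *Pnrc2* fell by 0.36 with LPS (adjusted p = 0.00229), and the splicing factor gene *Srsf10* had a log2 fold change of -0.10 (adjusted p = 0.204). With IFN-β, *Pnrc2* and *Srsf10* did not pass the test, with adjusted p-values of 0.286 and 0.0640.

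Of the 7 enzyme genes, 6 passed the test with LPS, where 68.2% of all tested genes did. *Faah* and *Abhd6* rose (32.8% of all genes rose) and *Mgll*, *Dagla*, *Daglb* and *Napepld* fell (35.4% fell). The same 6 genes had LPS and unstimulated libraries that did not overlap, as did 72.4% of all genes. With IFN-β, 4 of 7 passed the test against 46.9% of all genes. *Faah*, *Abhd6* and *Abhd12* rose (23.6% rose) and *Dagla* fell (23.3% fell), and 4 genes did not overlap between groups, against 58.1%. When the library letters were entered as a block, all 7 passed the test with IFN-β. The share of all genes that passed in that blocked fit is not given here, so this count has no background and is not read as a result about these genes. Between the stimuli 5 of 7 differed, against 49.1% of all genes. *Mgll*, *Dagla*, *Daglb* and *Abhd12* were higher with IFN-β than with LPS (25.8% of all genes) and *Faah* was lower (23.3%), and the same 5 did not overlap, against 56.8%. For groups that did not overlap the exact two-sided permutation test gave p = 0.1, the smallest that 3 libraries against 3 allow.

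**Figure D2:**
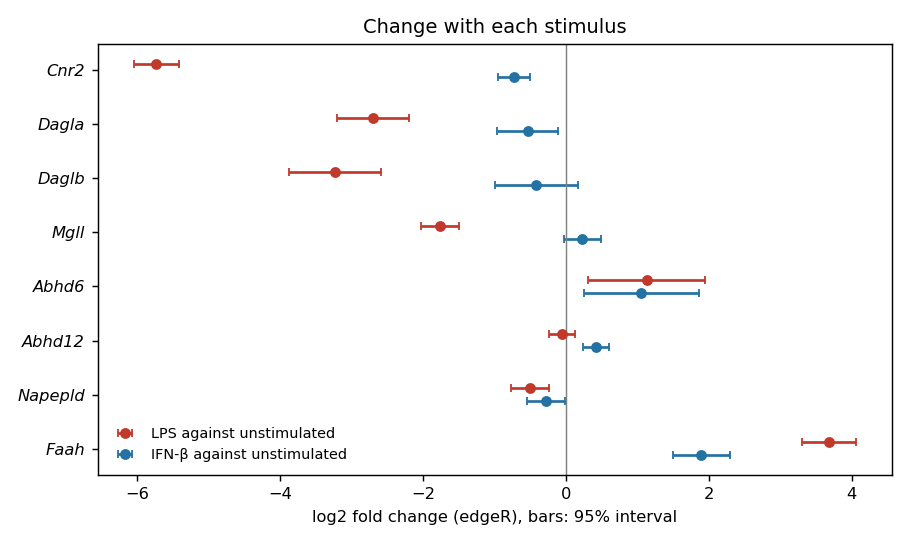
Log2 fold change of each gene under LPS and under IFN-β relative to unstimulated DCs, as points with the 95% interval of the edgeR fit over 9 libraries. The *Cnr2* point at -5.73 with LPS is a description, and the *Faah* points at 3.68 and 1.89 are the only ones above 1.2.

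Both diacylglycerol lipase genes, whose products make 2-AG, fell with LPS. *Daglb* (ENSMUSG00000039206, chr5:143464584-143505942, plus strand), the form prominent in macrophages, was at 184, 142 and 112 CPM in unstimulated libraries A, B and C, at 21.2, 15.8 and 9.83 CPM with LPS and at 135, 113 and 80.7 CPM with IFN-β. Library A was highest and library C lowest in every condition, and the LPS libraries lay below all others. Its log2 fold change with LPS was -3.23 (SE 0.29, edgeR adjusted p = 2.75e-06), and it was higher with IFN-β than with LPS by 2.82 (SE 0.29, adjusted p = 1.80e-05). With IFN-β against unstimulated DCs the groups overlapped and the log2 fold change was -0.41 (95% interval -0.99 to 0.17, adjusted p = 0.223). With the letters as a block it was -0.42 (SE 0.07) and passed the test (adjusted p = 1.24e-04). Its exons share 2309 bp, 24.1% of their length, with *Rac1* on the opposite strand, and the strand setting of the counting is not given in the sources used here. *Rac1*, a small GTPase gene, averaged 301 CPM in unstimulated DCs, 305 CPM with LPS and 374 CPM with IFN-β. Its part in the *Daglb* values was not tested.

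*Dagla* (ENSMUSG00000035735, chr19:10245265-10304877, minus strand), the lipase gene best known from neurons, was at 11.4, 9.54 and 7.17 CPM in unstimulated libraries A, B and C. It was at 1.27, 1.75 and 1.26 CPM with LPS, on 36 to 60 counts, and at 6.89, 7.46 and 4.97 CPM with IFN-β. The LPS libraries were again lowest, and the IFN-β libraries overlapped the unstimulated ones. The log2 fold change with LPS was -2.70 (SE 0.23, adjusted p = 1.67e-06), and IFN-β exceeded LPS by 2.17 (SE 0.23, adjusted p = 2.47e-05). With IFN-β it fell by 0.54 (SE 0.20, adjusted p = 0.0433). That call was lost without unstimulated library A, where the log2 fold change was -0.38, without unstimulated library B (-0.53), without IFN-β library A (-0.59) and without IFN-β library C (-0.38), and in a fit of the 2 groups alone (-0.54).

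The 3 genes for 2-AG hydrolases did not move together. *Mgll* (ENSMUSG00000033174, chr6:88724412-88828360, plus strand), the main 2-AG hydrolase in brain, was at 108, 114 and 121 CPM in unstimulated libraries A, B and C, at 27.8, 35.4 and 38.2 CPM with LPS and at 117, 137 and 148 CPM with IFN-β. All LPS libraries lay below all others, and it fell by 1.76 on the log2 scale with LPS (SE 0.12, adjusted p = 3.76e-07), and it was higher by 1.99 with IFN-β than with LPS (SE 0.12, adjusted p = 4.96e-07). With IFN-β the log2 fold change was 0.23 (95% interval -0.03 to 0.49, adjusted p = 0.139), and with the letters as a block it was 0.22 (adjusted p = 0.00688). Scaled by library size only, it was -0.081.

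*Abhd12* (ENSMUSG00000032046, chr2:150832493-150904741, minus strand), a hydrolase known for lysophosphatidylserine as well as 2-AG, was at 93.2, 80.4 and 75.9 CPM in unstimulated libraries A, B and C, at 84.6, 77.1 and 78.6 CPM with LPS and at 116, 105 and 112 CPM with IFN-β. The LPS libraries lay within the unstimulated range, and the IFN-β libraries lay above it. The log2 fold change with LPS was -0.05 (95% interval -0.24 to 0.13, adjusted p = 0.585). It rose with IFN-β by 0.42 (SE 0.08, adjusted p = 0.00208) and was higher with IFN-β than with LPS by 0.47 (SE 0.08, adjusted p = 8.63e-04). Both calls against unstimulated DCs depended on the scaling. By library size only, which shifted the median over all genes by -0.58 with LPS and -0.31 with IFN-β on the log2 scale, the *Abhd12* values were -0.63, past the threshold, and 0.11, not past it.

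*Abhd6* (ENSMUSG00000025277, chr14:8002902-8056763, plus strand), whose product hydrolyses 2-AG at the inner face of the membrane, was near the lower end of what the depth can show. It was at 0.507, 0.180 and 0.384 CPM in unstimulated libraries A, B and C, on 20, 8 and 17 counts. It was at 1.03, 0.554 and 0.768 CPM with LPS and at 0.773, 0.584 and 0.856 CPM with IFN-β. Both stimulated groups lay above the unstimulated one by a narrow margin and overlapped each other. It rose by 1.13 with LPS (SE 0.37, adjusted p = 0.0194) and by 1.06 with IFN-β (SE 0.36, adjusted p = 0.0351). The first call was lost without LPS library A (0.90) or unstimulated library B (0.79), and the second without IFN-β library A (1.01), IFN-β library C (0.95), unstimulated library B (0.73) or unstimulated library C (1.12). Both were lost with scaling by library size only (0.55 and 0.75). The difference between IFN-β and LPS was -0.07 (95% interval -0.83 to 0.69, adjusted p = 0.881).

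Of the pair of genes for anandamide and related amides, the degrading enzyme changed more than the synthetic one. *Napepld* (ENSMUSG00000044968, chr5:21662901-21701396, minus strand) was at 5.75, 5.79 and 5.73 CPM in unstimulated libraries A, B and C, at 4.03, 3.70 and 4.49 CPM with LPS and at 5.32, 4.62 and 4.28 CPM with IFN-β. Both stimulated groups lay below the unstimulated one and overlapped each other. It fell by 0.50 with LPS (SE 0.12, adjusted p = 0.00351). With IFN-β the log2 fold change was -0.28 (95% interval -0.54 to -0.02, adjusted p = 0.0750), and with the letters as a block the adjusted p was 0.0478. That call was also gained with upper-quartile scaling (-0.36), with scaling by library size only (-0.59) and without IFN-β library A (-0.38). The difference between IFN-β and LPS was 0.22 (95% interval -0.05 to 0.49, adjusted p = 0.159).

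*Faah* (ENSMUSG00000034171, chr4:115967145-116017926, minus strand) was scarce in unstimulated DCs, at 0.380, 0.561 and 0.451 CPM on 15, 25 and 20 counts. It was at 6.05, 6.15 and 5.87 CPM with LPS and at 1.80, 1.54 and 1.88 CPM with IFN-β. The 3 conditions did not overlap, and their order was the reverse of that of *Cnr2*. It rose with LPS by 3.68 (SE 0.17, adjusted p = 2.53e-08), or 12.8-fold, and with IFN-β by 1.89 (SE 0.18, adjusted p = 1.81e-05), or 3.71-fold. The log2 difference of IFN-β from LPS was -1.79 (SE 0.15, adjusted p = 4.02e-06).

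Levels can be set side by side between genes only per length, here as CPM per kb of exon. In unstimulated DCs the order was *Abhd12* (29.5), *Mgll* (22.6), *Daglb* (15.3), *Cnr2* (12.7), *Dagla* (1.63), *Napepld* (1.46), *Abhd6* (0.151) and *Faah* (0.0593). *Daglb* and *Cnr2* overlapped between libraries, as did *Dagla* and *Napepld*. With LPS *Abhd12* (28.4) and *Mgll* (6.66) led, followed by *Daglb* (1.63) and *Napepld* (1.03), which overlapped, and by *Faah* (0.769). *Abhd6* (0.331), *Dagla* (0.248) and *Cnr2* (0.236) came last, with each overlapping the next. The receptor gene thus went from the fourth place to the last. With IFN-β the order was *Abhd12* (39.3), *Mgll* (26.4), *Daglb* (11.5), *Cnr2* (7.61), *Napepld* (1.20), *Dagla* (1.12), *Abhd6* (0.312) and *Faah* (0.222), and *Napepld* and *Dagla* overlapped. With the longest transcript in place of the exon union, *Mgll* and *Daglb* changed places in unstimulated DCs, as did *Napepld* and *Faah* with LPS.

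**Figure D3:**
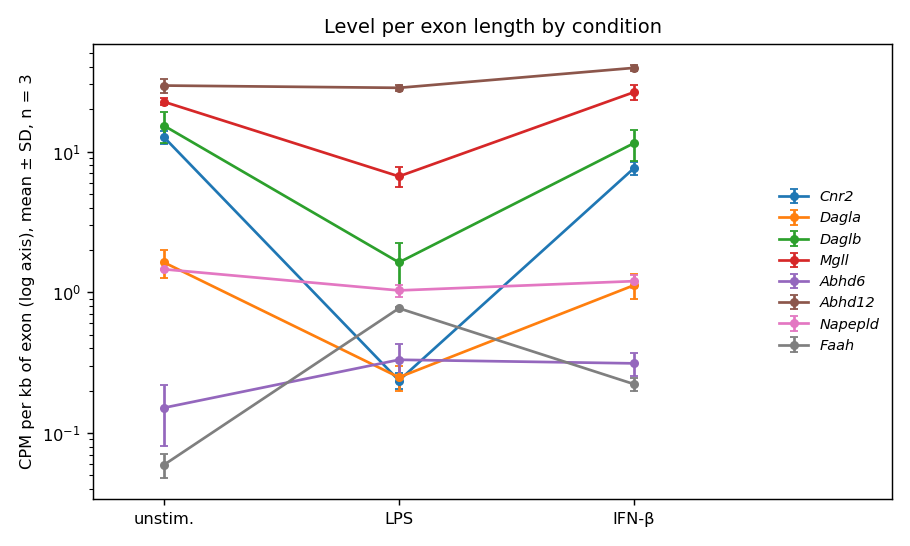
Mean level per kb of exon (log axis) of the 8 genes in each condition, with SD over 3 libraries, and lines that join the same gene. *Cnr2* drops from 12.7 to 0.236 CPM per kb with LPS while *Abhd12* stays first in every condition.

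Ratios of these levels within a library do not depend on the scaling between libraries. *Mgll* made up 39.1% to 46.9% of the summed level of the 3 hydrolase genes in unstimulated DCs, 15.3% to 21.1% with LPS and 35.7% to 42.2% with IFN-β. The LPS libraries stood below all others, and the remaining 2 conditions overlapped. *Abhd12* made up most of the rest, at 56.3% ± 3.87, 80.2% ± 2.92 and 59.6% ± 3.66 (SD, n = 3). The level of the lipase genes divided by that of the hydrolase genes was 0.255 to 0.389 in unstimulated DCs, 0.0349 to 0.0678 with LPS and 0.134 to 0.237 with IFN-β, and no conditions overlapped. *Daglb* gave most of the lipase level throughout, at 90.3% ± 0.362, 85.9% ± 4.43 and 91.0% ± 1.06. The ratio of *Faah* to *Napepld* was 0.0407 ± 0.00782, 0.752 ± 0.0893 and 0.187 ± 0.0299, with no overlap. These are ratios of RNA and say nothing of enzyme activity or of lipid levels, which were not analysed here.

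**Figure D4:**
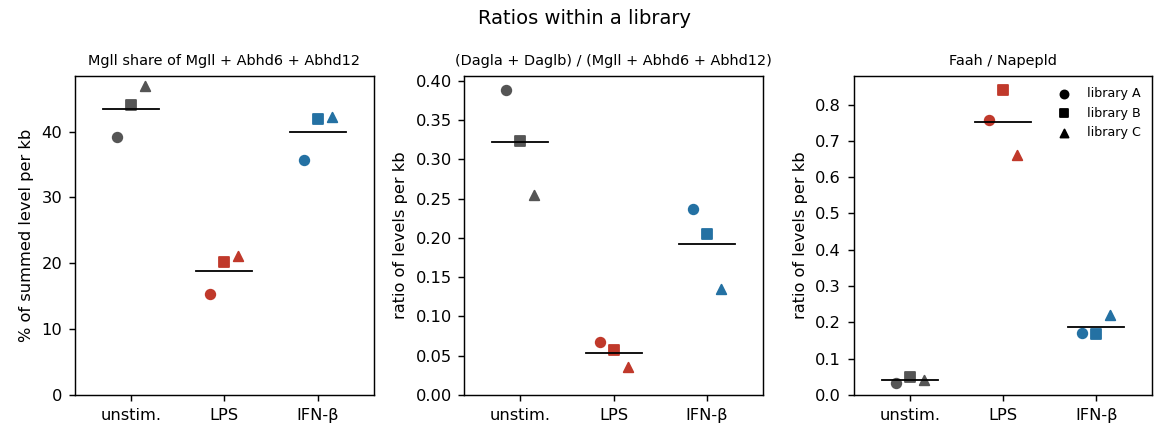
Ratios of levels per kb within each library, for the *Mgll* share of the hydrolase genes, for lipase over hydrolase genes and for *Faah* over *Napepld*, with the mean as a line and the letter as the symbol. In the LPS libraries the first ratio is at most 21.1%, the second at most 0.0678 and the third at least 0.661.

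The genes whose pattern was most like that of *Cnr2*, by the root-mean-square distance of centred log2(CPM + 0.5) over the 9 libraries, were *Aatk* (distance 0.432), *Galnt9* (0.531), *Amz1* (0.554), *Pdxk* (0.570) and *Cd300lb* (0.591). *Aatk*, a kinase gene, averaged 13.3, 0.224 and 7.71 CPM in unstimulated, LPS-activated and IFN-β-treated DCs. *Pdxk*, the pyridoxal kinase gene, averaged 108, 6.61 and 69.0 CPM, and *Cd300lb*, which encodes an activating receptor of myeloid cells, 86.2, 5.54 and 94.4 CPM. With a pseudocount of 2 CPM, *Aatk* moved to place 21 and the other 4 stayed among the nearest 5. Among 16259 genes, *Daglb* was the nearest of the enzyme genes at place 22, followed by *Dagla* at 165 and *Mgll* at 330, and *Faah* was the farthest at 15899. All 9 libraries that enter this distance are those in which *Cnr2* was chosen.

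*Cnr2* was the only classical cannabinoid receptor gene with RNA at an appreciable level, and only in unstimulated and IFN-β-treated DCs. *Cnr1*, which encodes CB1, had at most 1 count in any library. A list of 10 genes held receptors, channels and nuclear receptors that respond to endocannabinoids, and *Cnrip1*, which encodes a cannabinoid receptor-interacting protein. Of these 10, 5 passed the filter. With LPS 1 rose and 3 fell, and with IFN-β 1 rose and 1 fell (medians -0.34 and -0.07 on the log2 scale, against -0.04 and -0.02 for all genes). For this and the lists that follow, 32.8% of all tested genes rose and 35.4% fell with LPS, and 23.6% rose and 23.3% fell with IFN-β. *Gpr18*, a receptor proposed for N-arachidonoylglycine, rose with LPS by 2.45 (adjusted p = 3.7e-06) from 0.620 ± 0.0772 to 3.43 ± 0.882 CPM. *Pparg*, a lipid-sensing nuclear receptor gene, fell by 2.37 with LPS (adjusted p = 2.7e-06) and fell by 0.92 with IFN-β (adjusted p = 0.0027). *Gpr55*, a receptor for lysophosphatidylinositol, fell by 0.34 with LPS (adjusted p = 0.011) and rose with IFN-β by 0.57 (adjusted p = 8.7e-04), and its IFN-β and LPS values differed by 0.91 (adjusted p = 3.3e-05). The channel gene *Trpv2* fell by 0.63 with LPS, and *Ppard* did not pass the test with either stimulus.

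Other routes of synthesis and breakdown were described from 2 further lists. Of 10 other synthesis enzymes 7 passed the filter, of which 2 rose and 4 fell with LPS and 2 rose and 1 fell with IFN-β (medians -0.56 and -0.18). *Pla2g16*, a phospholipase and N-acyltransferase gene, rose from 9.63 ± 1.53 CPM to 96.7 ± 19.4 CPM with LPS and 56.7 ± 7.53 CPM with IFN-β. *Abhd4*, of the route that bypasses *Napepld*, fell by 1.04 with LPS (adjusted p = 8.2e-07) and fell by 0.56 with IFN-β (adjusted p = 2.4e-04). *Ptpn22* and *Inpp5d*, phosphatase genes better known from immune signalling, had log2 fold changes of -2.44 and -1.83 with LPS, past the threshold, and did not pass the test with IFN-β. Of 9 other degrading or oxidising enzymes 8 passed the filter, of which 3 rose and 4 fell with LPS and 3 rose and 1 fell with IFN-β (medians -0.42 and 0.05). *Ptgs2*, the inducible cyclooxygenase that also oxygenates 2-AG and anandamide, averaged 2.25, 3077 and 10.6 CPM in unstimulated, LPS-activated and IFN-β-treated DCs (log2 fold changes 10.42 and 2.23, adjusted p = 5.2e-10 and 4.0e-06). *Naaa*, the lysosomal amidase gene for N-acylethanolamines, fell by 1.47 with LPS (adjusted p = 7.4e-08), from 406 ± 19.5 to 146 ± 10.6 CPM, whereas *Faah* rose. The lipoxygenase gene *Alox5* fell by 2.66 with LPS and fell by 1.59 with IFN-β. *Alox12* rose from 0.0695 ± 0.0588 CPM, a level of a few counts, to 4.31 ± 0.495 CPM with LPS and 0.311 ± 0.0574 CPM with IFN-β, the latter also at low counts.

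**Figure D5:**
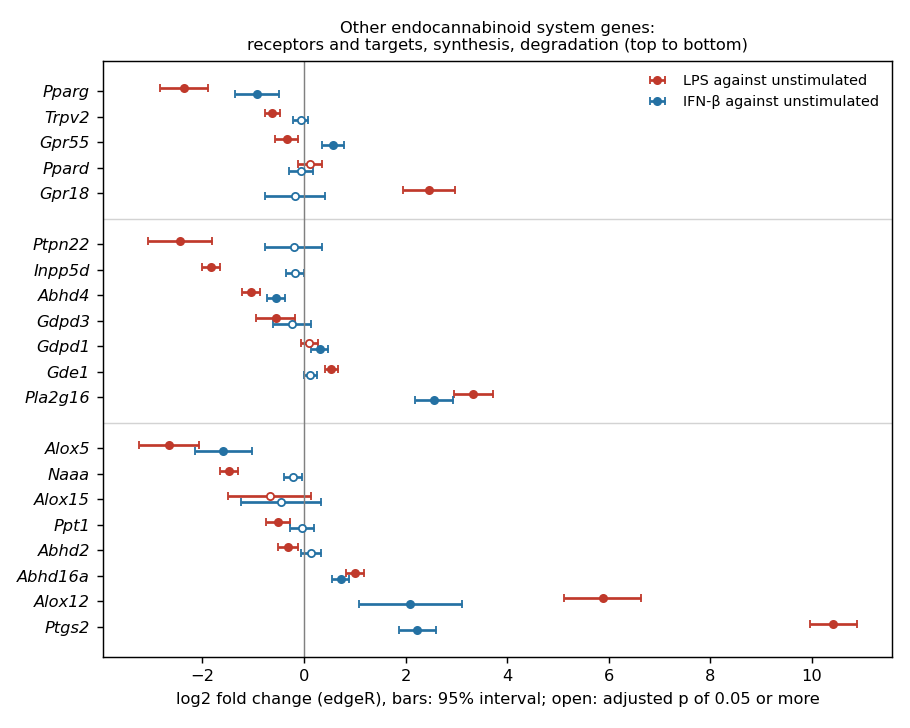
Log2 fold change under LPS and under IFN-β relative to unstimulated DCs for the 20 tested genes of the lists of receptors and targets, other synthesis enzymes and other degrading or oxidising enzymes, with 95% intervals. Filled points passed the test, and *Ptgs2* at 10.42 with LPS lies farthest from 0.

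The signalling and supply genes around CB2 were mixed. Of 20 listed partners of CB2 signalling 14 passed the filter, of which 4 rose and 9 fell with LPS and 4 rose and 6 fell with IFN-β (medians -0.75 and -0.25). *Arrb1*, which encodes β-arrestin 1, fell by 3.02 with LPS (adjusted p = 1.3e-07), from 364 ± 14.1 to 44.8 ± 13.1 CPM, and fell by 0.74 with IFN-β (adjusted p = 0.0044). The receptor kinase gene *Grk3* rose with LPS by 0.81, and the adenylyl cyclase gene *Adcy9* fell by 2.46 with LPS and fell by 0.92 with IFN-β. *Gnai3*, an inhibitory G protein subunit gene, rose by 0.36 with LPS and 0.37 with IFN-β, from 171 CPM in unstimulated DCs. *Gnai2*, of the same kind and at 623 CPM, fell by 0.22 with LPS (adjusted p = 0.012) and rose by 0.18 with IFN-β (adjusted p = 0.048). *Gnaz*, at low counts, fell by 1.86 with LPS (adjusted p = 0.017) and did not pass the test with IFN-β. Of 14 listed genes of the phospholipase C family, whose active enzymes supply diacylglycerol, 10 passed the filter. Of these, 5 rose and 4 fell with LPS and 5 rose and 2 fell with IFN-β (medians 0.44 and 0.05). The list holds phospholipase C-like genes, not taken here as sources of diacylglycerol, of which *Plcl2* rose by 1.08 and 0.89. With LPS *Plcd3* rose from 0.0534 ± 0.0330 to 0.620 ± 0.141 CPM and *Plcb4* from 0.246 ± 0.0932 to 0.853 ± 0.254 CPM, both at low counts. *Plcb2* fell by 2.87 with LPS, from 215 ± 32.1 to 29.3 ± 4.41 CPM. Of 5 lipid carriers, 1 rose and 2 fell with LPS and 2 rose with IFN-β (medians -0.13 and 0.41). *Fabp3* rose by 4.63 and 3.49, and *Fabp5*, a carrier of anandamide, fell by 0.85 with LPS.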

How the data were processed

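RNA sequencing was analysed for 9 libraries of GM-CSF bone marrow DCs, 3 per condition. Libraries were made from total RNA after removal of ribosomal RNA. Per the labels and the study's methods, the authors trimmed reads (Trim Galore 0.6.0 in the submitters' processing notes), mapped them to mouse GRCm38 with STAR (2.7.8a in those notes) and deposited raw counts per gene, without normalization or a filter. The strand setting is not given in the sources used here, so how reads in exons shared with an opposite gene were counted is not known.

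From these counts, edgeR 4.0.16 (R 4.3.3) was run with TMM factors, filterByExpr (16260 of 55471 genes kept), 1 term per condition over all 9 libraries and quasi-likelihood F-tests, with Benjamini-Hochberg adjustment across the 16260 genes and a threshold of 0.05. All adjusted p-values in the text are of this test unless a block is named. CPM used the TMM-scaled library sizes. Levels per kb and coordinates came from GENCODE M21 on GRCm38, with an entry for 55230 of 55471 identifiers, and promoters from RefSeq. Intervals and the floor of 3 counts cover counting error or library spread only, because reads that carry no molecular identifiers can repeat a molecule. Replicate libraries differed by 13.5 to 37.1 in chi-square per degree of freedom, so none was a duplicate. Same-letter libraries deviated together in all 9 pairs of libraries (correlations 0.134 to 0.546, against -0.480 to 0.0622 for different letters), so the letters may pair the samples. The main fit did not use the letters, which enter only the fit with the letters as a block.

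The members and gene lists were chosen with earlier results of these data known. Named from each list were the 2 largest rises and falls past the threshold, and of receptors, targets and degrading enzymes any tested gene. *Gnai2* and *Gnaz* were added beside *Gnai3*. Neighbours of *Cnr2* were taken from the nearest protein-coding genes on each side, of which 1 is not reported here. Not every gene that this rule allows is printed. Alternatives were DESeq2 1.42.0, library size or upper-quartile scaling, no filter, at least 10 counts in every library, the 2 groups alone, the letters as a block, a minimum log2 change of 1 in either direction, and leaving out each library.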

Additional observations from a re-analysis of the deposited data

How the results depend on the processing

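The enzyme count with LPS stayed between 5 and 6 of 7 when 1 library was left out, and that between the stimuli at 5. The count with IFN-β was 7 with the replicate block, 2 with a minimum log2 change of 1 in either direction and between 2 and 4 with 1 library left out, the lowest without IFN-β library C or unstimulated library B, against 4 as reported. The block changed no other call of an enzyme gene. The share of all genes that passed is not given for these alternatives, so their counts have no background. Of the 20 other endocannabinoid system genes, 17 passed with LPS, 9 with IFN-β and 17 between the stimuli, which a minimum log2 change of 1 reduced to 11, 4 and 8, and library size scaling raised to 14 with IFN-β. Scaled by library size only, *Cnr2* was at -6.31 with LPS, -1.04 with IFN-β and 5.27 between the stimuli, against -5.82 to -5.65, -0.81 to -0.64 and 4.91 to 5.09 with 1 library left out, and the median of all genes moved by -0.58, -0.31 and 0.27. The sign changed for 3 enzyme values that had not passed the test, namely *Mgll* with IFN-β (-0.081 by library size only), *Abhd6* between the stimuli (0.20 by library size only, and -0.28 to 0.15 with 1 library left out, above 0 without IFN-β library B or LPS library A) and *Abhd12* with LPS (-0.12 to 0.028 with 1 library left out, above 0 without unstimulated library A). The cause was not tested. Over all alternatives for single enzyme genes, 304 values kept direction and side of the threshold, 14 lost and 10 gained the call and 5 changed sign. With at least 10 counts in every library *Abhd6* gave no value. Depth limits *Abhd6* and *Faah* in unstimulated DCs and *Cnr2* with LPS, whose libraries hold between 8 and 36 counts.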

Other observations

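Beyond *Abhd6* and *Abhd12*, 18 other genes of the ABHD family of hydrolases were counted, among them *Abhd2*, *Abhd4* and *Abhd16a*, which are also in the lists of endocannabinoid enzymes above. Of these 18 genes 17 passed the filter, of which 3 rose and 10 fell with LPS and 3 rose and 7 fell with IFN-β (median log2 fold changes -0.77 and 0.01, against -0.04 and -0.02 for all genes). Of all tested genes 32.8% rose and 35.4% fell with LPS, and 23.6% rose and 23.3% fell with IFN-β. *Abhd14b* fell from 5.83 ± 0.376 to 1.26 ± 0.111 CPM with LPS and 2.63 ± 0.540 CPM with IFN-β, and *Abhd17c*, a gene for a protein depalmitoylase, rose with LPS by 1.33 (edgeR adjusted p = 9.3e-08) with a log2 fold change of 0.02 with IFN-β (adjusted p = 0.82).

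Of 40 other listed receptors, most of them for lipid ligands, 39 were in the count data and 28 passed the filter. Of these, 12 rose and 10 fell with LPS and 9 rose and 6 fell with IFN-β (medians -0.02 and 0.10). Genes of the formyl peptide receptor family are among those counted. *Lpar5*, a lysophosphatidic acid receptor gene, fell with LPS from 4.42 ± 1.21 to 0.0789 ± 0.0849 CPM, a level of a few counts (adjusted p = 4.8e-07). Its log2 fold change with IFN-β was -1.40 (SE 0.26, adjusted p = 0.0012). *Lpar1*, for another receptor of the same ligand, rose from 1.27 ± 0.342 to 23.2 ± 8.21 CPM with LPS and by 1.98 on the log2 scale with IFN-β. *Fpr3*, of the formyl peptide receptor family, rose from 0.0909 ± 0.0797 CPM, a level of a few counts, to 3.14 ± 0.881 CPM with LPS. *Cysltr2*, a cysteinyl leukotriene receptor gene, rose by 1.63 with LPS (SE 0.23) and by 1.43 with IFN-β (SE 0.23), and its LPS and IFN-β libraries overlapped.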
